A study of Homo sapiens with 12 samples.

Results

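Cells that received the mtAsn-1 oligonucleotide were set against cells that received the mtAsn-2 oligonucleotide, 2 locked nucleic acids (LNAs) directed at the same mitochondrial asparagine tRNA. The comparison took the 3 libraries labelled mtAsn-1 and the 3 labelled mtAsn-2, 6 of the 12 libraries of the study, across the 52859 intact genes of its count table. Of these genes, 16051 had enough reads to be tested. Every library came from MDA-MB-231, a widely used human line of triple-negative breast cancer, 2 days after a Lipofectamine reagent delivered 20 nM of LNA to cells grown in DMEM with serum. The other 6 libraries came from cells given a control LNA (3) or mtLys (3), whose target is the lysine tRNA of mitochondria. The control cells therefore also carried lipid and an LNA. Each group rests on 1 oligonucleotide in 1 cell line. Nothing in the labels ties replicates to separate cultures, and the p-values below therefore measure library-to-library spread that may be technical. Means are given ± SD over the 3 libraries of a group.

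Mitochondrial tRNAs are encoded by the mitochondrial genome and carry amino acids to the mitochondrial ribosome, which makes core subunits of the respiratory chain. LNAs are short oligonucleotides with locked sugars that pair tightly with a complementary RNA. The direct comparison asks how far the transcriptomes produced by a pair of LNAs against one RNA differ.

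The shared target is shown first, since both LNAs are named after it; the lysine tRNA is given beside it as the target of mtLys. Letters are the sense strand of the gene, with the anticodon in capitals, from the GENCODE 29 transcripts on GRCh38 (chrM:5657-5729, minus strand, and chrM:8295-8364, plus strand). 
MT-TN: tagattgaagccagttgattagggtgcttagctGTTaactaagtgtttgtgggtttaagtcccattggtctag
MT-TK: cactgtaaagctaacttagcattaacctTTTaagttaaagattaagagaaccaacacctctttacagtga
MT-TN, listed as TRNN, had 5, 2 and 2 reads in the mtAsn-1 libraries and 1, 1 and 3 in the mtAsn-2 libraries, with 3, 6 and 2 in the control libraries and 4, 5 and 1 with mtLys. The groups overlapped. The MT-TN rate with mtAsn-2 was 0.36 times that with mtAsn-1, with a 95% counting interval of 0.0949 to 1.20. A two-sided exact permutation test over the 3 and 3 libraries gave p = 0.2, where the smallest p it allows is 0.1. A difference in the target was not detectable from these few reads, and the interval covers counting error only. Reads differed widely between mitochondrial tRNAs: TRNV and TRNS2 had 0 in every library, and TRNE had 2393, 2205 and 4372 in the mtAsn-1 libraries. Those 3 were chosen after their values had been seen. Whether reads in these libraries follow the amount of mature tRNA was not tested, for MT-TN or for the tRNAs below. Most mitochondrial tRNAs tested were not called as different, whereas 46.5% of all genes tested were. Those called, all given here, went in both directions and were chosen after their values had been seen. TRNT (threonine) measured 15.2, 11.1 and 20.1 CPM with mtAsn-1 and 27.5, 24.2 and 23.6 with mtAsn-2 (log2 fold change 0.66, edgeR adjusted p = 0.00574), CPM being counts scaled to library size. TRNM (methionine) and TRNL2 (leucine) both differed by 0.46 in the same direction, with edgeR adjusted p of 0.00116 and 0.00192. TRNF (phenylalanine), under 1 CPM in every mtAsn-1 and mtAsn-2 library, was also higher (0.90, edgeR adjusted p = 0.0372). TRNC (cysteine), likewise under 1 CPM, was lower (-1.02, edgeR adjusted p = 0.0413). NARS2, the mitochondrial asparaginyl-tRNA synthetase, measured 15, 17.1 and 14.5 CPM in the mtAsn-1 libraries and 14.4, 13.8 and 15 CPM in the mtAsn-2 libraries (log2 fold change -0.10 ± 0.08 SE, edgeR adjusted p = 0.299). KARS1, which charges lysine tRNAs, measured 143, 144 and 141 CPM in the mtAsn-1 libraries and 149, 147 and 148 CPM in the mtAsn-2 libraries (log2 fold change 0.06 ± 0.04 SE, edgeR adjusted p = 0.316).

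Total counts were 20697370, 17978825 and 28314164 in the mtAsn-1 libraries and 34832707, 30524246 and 31553676 in the mtAsn-2 libraries, so every mtAsn-2 library was deeper than every mtAsn-1 library. CPM values are scaled by library size and by TMM factors, which adjust for composition, and a call is a Benjamini-Hochberg adjusted p under 0.05 in edgeR's quasi-likelihood test. Fold changes are mtAsn-2 minus mtAsn-1 on a log2 scale throughout. The first principal component (36.03% of variance) placed control at one end and mtAsn-1 with mtLys at the other, and the second (27.43%) held mtAsn-2 apart from the other 9 libraries. The third component (8.04%) set mtAsn-1 (8.54, 27.4 and 4.52) apart from mtLys (-10.72, -17.25 and -17.17), with replicate 2 of mtAsn-1 furthest out.

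**Figure D1:**
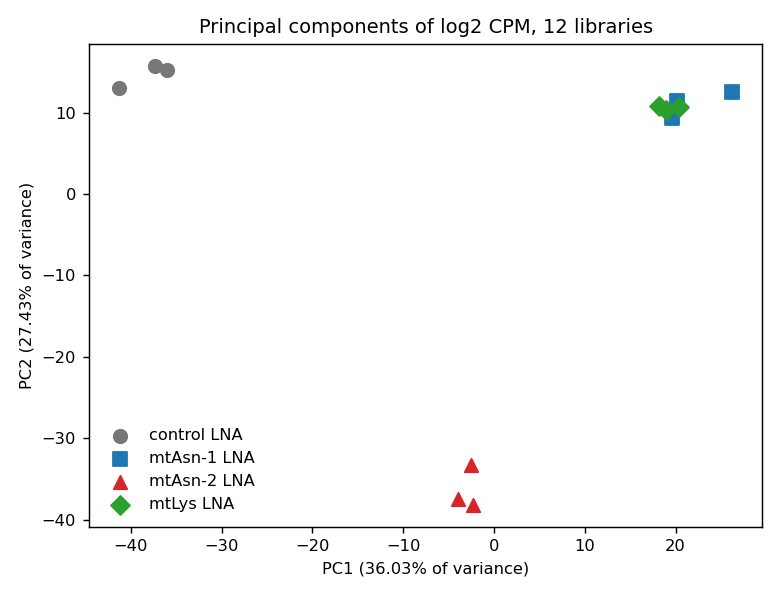
Principal components 1 (horizontal) and 2 (vertical) of log2 CPM, 1 point per library and 1 colour and marker per group. The 3 mtAsn-1 libraries lie beside or among the mtLys libraries, and the 3 mtAsn-2 libraries lie alone.

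The oligonucleotides against one tRNA gave transcriptomes that differed at 7465 genes, 46.5% of those tested: 3516 were higher with mtAsn-2 (21.9%) and 3949 were lower (24.6%). Among protein-coding genes, 24.28% were higher and 28.38% lower. These shares are the background for every count of list members below. Most differences were small. The median size among called genes was 0.354 on the log2 scale, and 67.25% were under 0.5. At least 2-fold differences numbered 687 (4.28% of genes), with 340 higher (2.12%) and 347 lower (2.16%). Under a stricter filter on low counts, 186 of 10884 genes were at least 2-fold different. All 3 mtAsn-2 libraries lay above all mtAsn-1 libraries at 4066 genes (25.3%) and below them at 4395 (27.4%). Without replicate 2 of mtAsn-1, 3113 genes were higher and 3615 lower. Thinning every library to the smallest total left 3235 higher and 3534 lower. By the same test, mtAsn-1 differed from control at 7787 genes (48.5%) and mtAsn-2 at 8199 (51.1%), and these 2 comparisons share the control libraries. The mtAsn-1 libraries differed from mtLys, which targets another tRNA, at 845 genes (5.26%), and mtAsn-2 differed from mtLys at 7807 (48.6%). The root mean square distance in log2 CPM was 0.466 to 0.551 between mtAsn-1 and mtAsn-2 libraries, 0.306 to 0.399 between mtAsn-1 and mtLys libraries, and 0.315 to 0.372 among the mtAsn-1 libraries themselves.

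**Figure D2:**
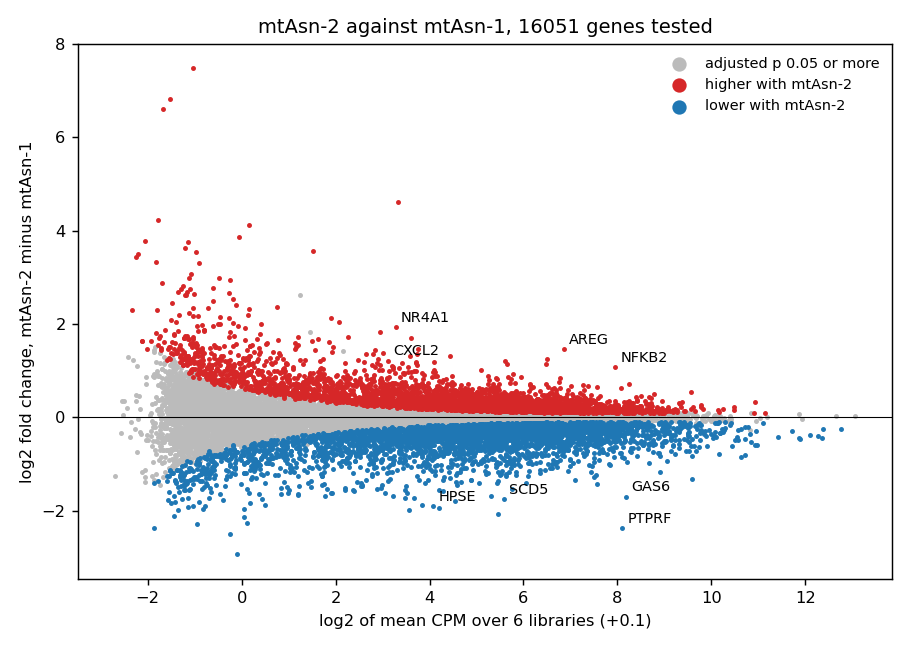
Log2 fold change of mtAsn-2 over mtAsn-1 (vertical) against the log2 of mean CPM over the 6 libraries (horizontal), 1 point per gene. Red points (3516) were higher and blue points (3949) lower at an adjusted p under 0.05, and 67.25% of these lie within 0.5 of 0.

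PTPRF, HPSE and GAS6 were among the largest falls with mtAsn-2, by 5.19, 3.73 and 3.24 fold. PTPRF (chr1:43522238-43623672), a receptor tyrosine phosphatase of cell contacts, measured 450.4, 502 and 432 CPM in the mtAsn-1 libraries and 89.3, 86.7 and 90.6 CPM in the mtAsn-2 libraries (log2 fold change -2.37 ± 0.06 SE, edgeR adjusted p = 1.88e-19). All mtAsn-2 libraries lay far below all mtAsn-1 libraries, a 5.19-fold difference, and the controls at 321, 288 and 280.0 CPM lay between. GAS6 (chr13:113820549-113864076), the ligand of the AXL receptor kinase, measured 446, 450.4 and 429.7 CPM in the mtAsn-1 libraries and 134, 134 and 142 CPM in the mtAsn-2 libraries (log2 fold change -1.70 ± 0.04 SE, edgeR adjusted p = 4.26e-22). For GAS6 the control libraries were near mtAsn-1, at 476 ± 20.2 CPM (SD, n = 3). HPSE, the heparanase that cuts heparan sulfate chains, averaged 26.4 ± 0.733 CPM with mtAsn-1 and 7.07 ± 0.393 with mtAsn-2 (log2 fold change -1.90). SCD5, a fatty acid desaturase, averaged 73.5 ± 2.74 and 21.7 ± 1.88 CPM (log2 fold change -1.76). Further falls among the 12 largest of coding genes were OFD1 (-1.98), a centriole protein, PPIC (-1.93), a cyclophilin, SDK1 (-1.78) and CDH4 (-1.72), which are cell adhesion proteins, RBMS3 (-1.72), an RNA-binding protein, PCMTD1 (-1.68) and DIP2C (-1.68). Exons of OFD1, PPIC, SDK1, RBMS3 and GAS6 overlap an annotated exon on the other strand, and CDH4 has a copy on an alternate locus. The strand used in counting is not given in the sources used here, so reads of such partners cannot be told apart. The same holds for these genes named elsewhere: TP73-AS1, APOL1, KCNQ5, TLN2, IL6, SOD2, MTHFD2, SLC7A11, PFKM, LOX, LOXL2, BNIP3, SREBF2, ACSL4, RPL27A, YRDC, COL5A1, SLC6A6, VIM, KRT8, KRT18 and RSAD2.

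NR4A1, RRAD, AREG and BIRC3 were among the largest rises with mtAsn-2. NR4A1 (chr12:52022832-52059507), an immediate early nuclear receptor, measured 3.69, 4.4 and 3.95 CPM in the mtAsn-1 libraries and 14.7, 15 and 16 CPM in the mtAsn-2 libraries (log2 fold change 1.93 ± 0.12 SE, edgeR adjusted p = 7.06e-14). All mtAsn-2 libraries exceeded all mtAsn-1 libraries, 3.81-fold on average, and the controls measured 21.6, 20.2 and 15.5 CPM. AREG (chr4:74445136-74455005), the EGF receptor ligand amphiregulin, measured 55.6, 73.5 and 56.5 CPM in the mtAsn-1 libraries and 163, 176 and 170.0 CPM in the mtAsn-2 libraries (log2 fold change 1.47 ± 0.10 SE, edgeR adjusted p = 1.62e-07). Here the control libraries, at 50.9, 49.2 and 52.7 CPM, were near mtAsn-1. RRAD, a small GTPase, measured 3, 3.54 and 3.45 CPM in the mtAsn-1 libraries and 12.3, 12.1 and 11.4 CPM in the mtAsn-2 libraries (log2 fold change 1.84 ± 0.14 SE, edgeR adjusted p = 6.56e-11). BIRC3, which encodes the ubiquitin ligase cIAP2, averaged 54 ± 3.74 CPM with mtAsn-1 and 128 ± 8.43 with mtAsn-2 (log2 fold change 1.25). The remaining rises of the leading 12 were PTPRH (1.69), BEX2 (1.45), ATF3 (1.38), SLC25A45 (1.36), CSF3 (1.35), HES4 (1.31), EVI2B (1.31) and CEACAM19 (1.24). NR4A1, RRAD and ATF3 were lower in mtAsn-1 than in control by 2.27, 1.95 and 1.88 on the log2 scale. Against the same control, mtAsn-2 gave -0.35, -0.11 and -0.50 for these 3. These values share the control libraries. Among non-coding genes, GASAL1 measured 7.34, 6.85 and 7.29 CPM in the mtAsn-1 libraries and 19.1, 20.8 and 19.4 CPM in the mtAsn-2 libraries (log2 fold change 1.46 ± 0.10 SE, edgeR adjusted p = 4.06e-13), and TP73-AS1 averaged 3.9 ± 0.485 CPM with mtAsn-1 and 9.85 ± 1.27 with mtAsn-2.

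**Figure D3:**
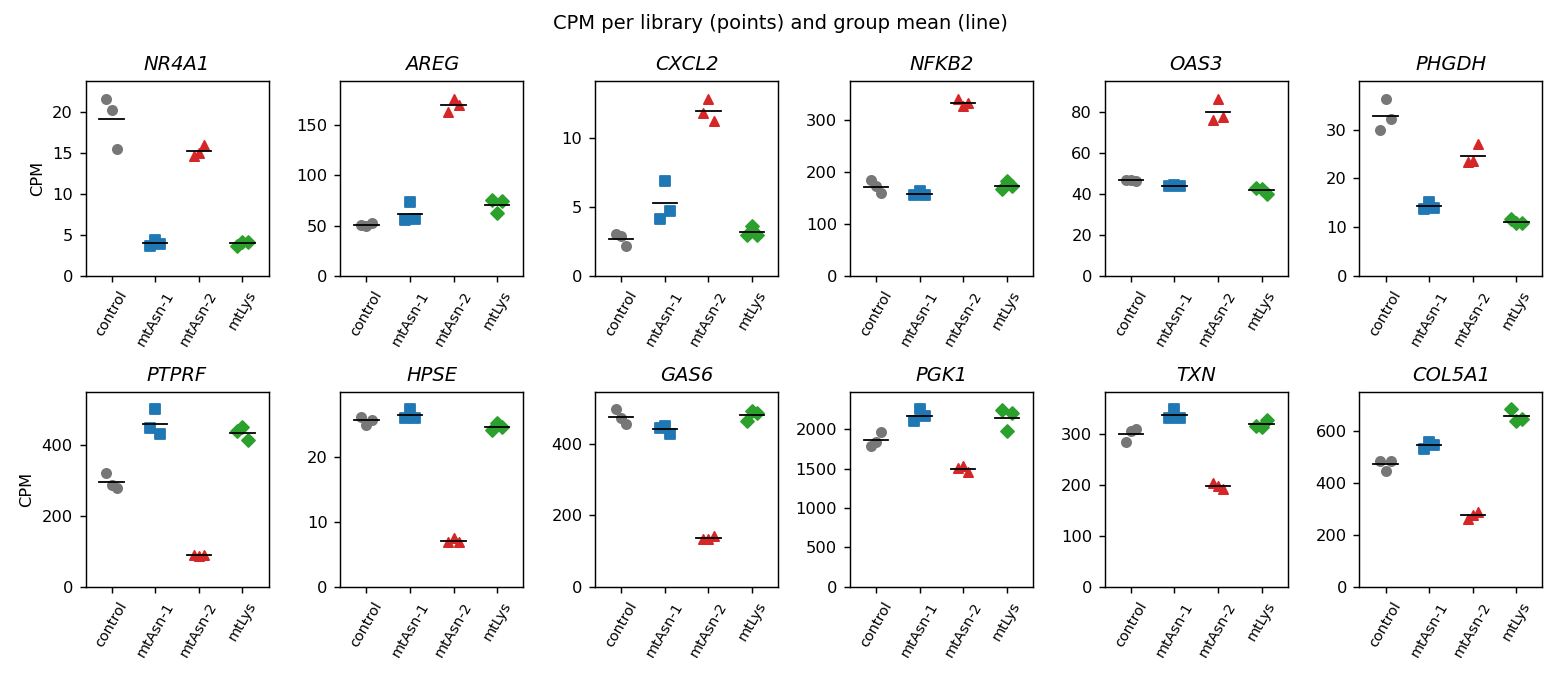
CPM (vertical, from 0) in each library of 12 genes, with 1 point per library, 1 colour per group and a line at the group mean of 3 libraries. The mtAsn-2 libraries stand above the mtAsn-1 libraries in the upper 6 genes and below them in the lower 6. Control lies highest in NR4A1 and PHGDH.

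Larger folds occurred at genes whose mean log2 CPM over the 6 libraries was under 2, the level required of the genes above (1.99 for SNORA3A); apart from RPL27A, the genes of this paragraph were chosen after their values had been seen. SNORA3A, an H/ACA small nucleolar RNA of the class that guides pseudouridylation, was one of them. It lies at chr11:8684227-8684356, plus strand, in an intron of the main RPL27A transcript that some other annotated RPL27A transcripts retain, so reads of the snoRNA and of a retained intron cannot be told apart. Its sequence (GENCODE 29, GRCh38) is printed for the size of its difference, with the ACA box near its end in capitals.
SNORA3A: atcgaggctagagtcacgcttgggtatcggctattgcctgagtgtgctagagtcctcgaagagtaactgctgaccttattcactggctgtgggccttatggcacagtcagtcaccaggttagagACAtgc
SNORA3A measured 1.03, 0.571 and 0.718 CPM in the mtAsn-1 libraries and 19.6, 19.9 and 18.1 CPM in the mtAsn-2 libraries (log2 fold change 4.62 ± 0.14 SE, edgeR adjusted p = 2.11e-20). The groups were far apart, a 24.6-fold difference, and both control (1.04, 1.1 and 1.12 CPM) and mtLys (0.727, 0.732 and 0.744 CPM) were at the mtAsn-1 level. SNORA3B, in another intron of the same host gene, measured 0.443, 0.571 and 0.538 CPM in the mtAsn-1 libraries and 2.72, 2.53 and 2.77 CPM in the mtAsn-2 libraries (log2 fold change 2.36 ± 0.22 SE, edgeR adjusted p = 1.01e-09). The host gene RPL27A (chr11:8682792-8689872), a large-subunit ribosomal protein, moved the other way, from 592, 617 and 582 CPM with mtAsn-1 to 423, 412 and 422 CPM with mtAsn-2 (log2 fold change -0.51 ± 0.04 SE, edgeR adjusted p = 4.86e-12). That was the lowest of the 73 cytosolic ribosomal protein genes tested, whose median was 0.065. KRT17, a basal keratin, measured 0.394, 0.229 and 0.575 CPM in the mtAsn-1 libraries and 4.9, 5.65 and 4.81 CPM in the mtAsn-2 libraries (log2 fold change 3.58 ± 0.22 SE, edgeR adjusted p = 8.58e-14). KLHDC7B rose 17.5-fold and COL15A1, a basement membrane collagen, 4.39-fold, from means of 0.114 and 1.3 CPM. Among falls of this kind were SYT16 (-2.94) and OPRD1 (-2.50), both under 2 CPM with mtAsn-1.

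NF-kB is a family of transcription factors held in the cytoplasm by IkB proteins, and its targets include chemokines, cytokines and its own inhibitors. Of 20 chemokine, cytokine and growth factor ligands tested from a list of 26, 14 rose with mtAsn-2 and none fell, with a median of 0.692 against 0.001 for all genes, of which 21.9% rose and 24.6% fell. Without replicate 2 of mtAsn-1, 12 rose, and 8 rose and 1 fell under a stricter filter on low counts that tests fewer of them. In a fit of the 6 compared libraries alone, 1 fell. CXCL2, a neutrophil chemokine, measured 4.14, 6.91 and 4.7 CPM in the mtAsn-1 libraries and 11.8, 12.8 and 11.2 CPM in the mtAsn-2 libraries (log2 fold change 1.21 ± 0.13 SE, edgeR adjusted p = 1.95e-08). IL6 measured 10.6, 13.8 and 11 CPM in the mtAsn-1 libraries and 24.6, 22.8 and 20.9 CPM in the mtAsn-2 libraries (log2 fold change 0.96 ± 0.10 SE, edgeR adjusted p = 3.14e-08). The 2 groups did not overlap for either gene, and the controls were lowest, at 3.02, 2.92 and 2.14 CPM for CXCL2 and 7.8, 7.86 and 5.88 CPM for IL6. CSF3, the granulocyte colony-stimulating factor, measured 5.71, 6.91 and 9.44 CPM in the mtAsn-1 libraries and 20.8, 19.8 and 16.9 CPM in the mtAsn-2 libraries (log2 fold change 1.35 ± 0.13 SE, edgeR adjusted p = 1.06e-07). CCL20 rose from a mean of 0.131 CPM to 1.11 CPM, a level of few reads.

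Of 23 NF-kB subunits, feedback regulators and other targets, 18 rose and 1, SOD2, fell, with a median of 0.288. The SOD2 call was lost when libraries were thinned to the smallest total, without replicate 2 of mtAsn-1 and without any 1 of the mtAsn-2 libraries, so that 0 fell. NFKB2 (chr10:102394110-102402529), the p100 subunit precursor of the non-canonical arm, measured 155, 164 and 157 CPM in the mtAsn-1 libraries and 342, 327 and 334 CPM in the mtAsn-2 libraries (log2 fold change 1.08 ± 0.05 SE, edgeR adjusted p = 4.82e-17). RELB, its partner subunit, measured 29.6, 31 and 27.9 CPM in the mtAsn-1 libraries and 70, 66.3 and 66.1 CPM in the mtAsn-2 libraries (log2 fold change 1.20 ± 0.06 SE, edgeR adjusted p = 1.77e-15). Neither gene's groups overlapped, and both had controls near mtAsn-1, at 172 ± 12.1 and 34.7 ± 3.63 CPM. TRAF1, a receptor adaptor, measured 21.2, 26.3 and 20.7 CPM in the mtAsn-1 libraries and 46, 46.5 and 45 CPM in the mtAsn-2 libraries (log2 fold change 1.03 ± 0.07 SE, edgeR adjusted p = 3.42e-12). The NF-kB consensus was searched by name on both strands in the 200 bases before the gene start of the RefSeq promoter table (GRCh38.p14). The annotation of the count table can start elsewhere: by its coordinates the window printed here lies inside the gene for IL6 and partly inside it for OAS3 and IFI6. The consensus was present in 8 of 17 ligand promoters found (47.06%) and 6 of 21 of the subunit and feedback list (28.57%). It was in 4.08% of all 27305 promoters of that length and 4.795% of the 11450 of tested genes. Promoters of 3 ligands are printed with the matches in capitals, since these genes all rose (CXCL1, chosen after its values had been seen, averaged 16.8 CPM with mtAsn-1 against 27.6 with mtAsn-2): CXCL1 (chr4:73869193-73869392, plus strand), CXCL2 (chr4:74099196-74099395, minus strand) and IL6 (chr7:22727000-22727199, plus strand). In CXCL1 and CXCL2 a pair of overlapping matches forms 1 capital run.
CXCL1: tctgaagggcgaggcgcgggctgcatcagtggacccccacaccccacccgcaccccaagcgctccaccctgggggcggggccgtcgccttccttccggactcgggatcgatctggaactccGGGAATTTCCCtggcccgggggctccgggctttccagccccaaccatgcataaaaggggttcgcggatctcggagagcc
CXCL2: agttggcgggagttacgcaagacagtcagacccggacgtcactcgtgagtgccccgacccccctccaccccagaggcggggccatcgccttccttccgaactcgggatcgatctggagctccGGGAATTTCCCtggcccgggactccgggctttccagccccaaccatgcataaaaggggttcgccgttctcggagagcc
IL6: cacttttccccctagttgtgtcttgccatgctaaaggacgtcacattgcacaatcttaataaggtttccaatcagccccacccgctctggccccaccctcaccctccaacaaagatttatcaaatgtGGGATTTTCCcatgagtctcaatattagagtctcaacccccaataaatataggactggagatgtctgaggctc
CXCL1 and CXCL2 carry the same capital run. A match describes letters and is neither a bound site nor a cause. The lists were chosen as genes of the NF-kB programme, so their shares of matches were not independent of that choice. The same holds for the interferon and hypoxia lists below.

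Interferon-stimulated genes encode antiviral effectors, and many carry an element bound by interferon-activated transcription factors. Of 44 tested, 34 rose and 4 fell, with a median of 0.392. Relative to control, the list median was -0.216 with mtAsn-1 and 0.13 with mtAsn-2, values that share the control libraries. OAS3 (chr12:112938463-112973251), an enzyme that makes the activator of RNase L, measured 43.6, 44.1 and 43.8 CPM in the mtAsn-1 libraries and 76, 86.2 and 77.1 CPM in the mtAsn-2 libraries (log2 fold change 0.86 ± 0.05 SE, edgeR adjusted p = 5.83e-14). IFI6, an interferon-induced membrane protein, measured 15.6, 15.1 and 15.8 CPM in the mtAsn-1 libraries and 26.8, 29.4 and 29.9 CPM in the mtAsn-2 libraries (log2 fold change 0.89 ± 0.07 SE, edgeR adjusted p = 6.2e-11). The groups did not overlap for either gene, and OAS3 in control, at 46.8, 46.5 and 46.1 CPM, was close to mtAsn-1. IRF1, a transcription factor of the response, measured 53.8, 50.9 and 55.7 CPM in the mtAsn-1 libraries and 86.3, 81.7 and 91.5 CPM in the mtAsn-2 libraries (log2 fold change 0.69 ± 0.05 SE, edgeR adjusted p = 6.23e-12), with controls of 77.3, 83.8 and 80 CPM nearer to mtAsn-2. RSAD2, the antiviral enzyme viperin, averaged 0.195 ± 0.0221 CPM with mtAsn-1 and 1.26 ± 0.257 with mtAsn-2; it was chosen after its values had been seen. STAT2 was among the 4 that fell, from 108 ± 4.38 to 82.7 ± 5.87 CPM. Nucleic acid sensors were split, with 10 of 21 higher and 5 lower, or 3 lower under the stricter filter. TLR3, the endosomal sensor of double-stranded RNA, was among the higher ones, at 11.1, 12 and 10.9 CPM in the mtAsn-1 libraries and 22.4, 23.2 and 20.9 CPM in the mtAsn-2 libraries (log2 fold change 0.97 ± 0.08 SE, edgeR adjusted p = 2.24e-11). The interferon-stimulated response element, read as GAAA, any 2 bases and GAAA on either strand, was in 18 of 35 of these promoters (51.43%). It was in 2.435% of all promoters and 1.834% of those of tested genes. Of the 31 interferon-stimulated members with a promoter that were called, 15 held it. OAS3 (chr12:112938274-112938473, plus strand) and IFI6 (chr1:27672193-27672392, minus strand) are printed with those letters in capitals, as members that hold more than 1 match.
OAS3: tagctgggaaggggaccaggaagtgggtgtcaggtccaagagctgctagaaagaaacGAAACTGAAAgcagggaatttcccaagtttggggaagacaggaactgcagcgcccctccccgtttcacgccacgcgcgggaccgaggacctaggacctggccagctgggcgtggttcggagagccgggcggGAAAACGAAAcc
IFI6: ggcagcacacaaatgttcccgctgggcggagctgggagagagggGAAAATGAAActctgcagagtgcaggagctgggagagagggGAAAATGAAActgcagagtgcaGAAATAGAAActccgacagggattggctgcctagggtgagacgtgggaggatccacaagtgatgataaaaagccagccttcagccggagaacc
OAS3 held 2 such runs and IFI6 held 3 within 200 bases.

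Immediate early transcription factors, which answer growth factor and stress signals within minutes, were mostly higher with mtAsn-2: 16 of 23 rose and 3 fell, with a median of 0.286. Relative to control, the list median was -0.365 with mtAsn-1 and -0.021 with mtAsn-2, values that share the control libraries. FOS measured 4.23, 4.51 and 4.13 CPM in the mtAsn-1 libraries and 8.39, 7.62 and 8.03 CPM in the mtAsn-2 libraries (log2 fold change 0.91 ± 0.11 SE, edgeR adjusted p = 1.08e-07). KLF2 measured 31, 27.4 and 28.9 CPM in the mtAsn-1 libraries and 40.5, 47.8 and 45.3 CPM in the mtAsn-2 libraries (log2 fold change 0.61 ± 0.08 SE, edgeR adjusted p = 2.22e-06). JUN, a partner of FOS, fell from 250.0, 257 and 247 CPM to 195, 191 and 205 CPM (log2 fold change -0.35 ± 0.06 SE, edgeR adjusted p = 6.25e-05). For FOS the control libraries, at 6.05, 7.76 and 6.36 CPM, were nearer to mtAsn-2, and for JUN, at 182, 169 and 163 CPM, likewise. Genes of MAP kinase feedback were lower more often than higher, with 10 of 22 down (45.45%) and 4 up (18.18%). Of protein-coding genes, 28.38% were lower and 24.28% higher. ETV5, an ETS factor downstream of ERK, averaged 134 ± 7.6 CPM with mtAsn-1 and 75.3 ± 1.3 with mtAsn-2 (log2 fold change -0.83). HBEGF, like AREG a ligand of the EGF receptor, rose from 77.7 ± 6.88 to 111 ± 4.11 CPM, and TGFA, a ligand of the same receptor, fell from 99.4 ± 3.75 to 73 ± 1.26 CPM.

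ATF4 is the transcription factor of the integrated stress response, which drives amino acid synthesis and transport. Of 41 ATF4 targets tested, 27 were higher with mtAsn-2 and 7 lower, with a median of 0.200, against medians of -0.393 for mtAsn-1 and -0.207 for mtAsn-2 relative to control. PHGDH (chr1:119711934-119744218), the first enzyme of serine synthesis, measured 13.7, 15.1 and 13.9 CPM in the mtAsn-1 libraries and 23.4, 23.6 and 26.9 CPM in the mtAsn-2 libraries (log2 fold change 0.79 ± 0.08 SE, edgeR adjusted p = 2.35e-09). The groups did not overlap, and every control library, at 30, 36.3 and 32.1 CPM, lay above both. CHAC1, which degrades glutathione, measured 9.9, 9.77 and 8.4 CPM in the mtAsn-1 libraries and 16.2, 16.4 and 16.2 CPM in the mtAsn-2 libraries (log2 fold change 0.81 ± 0.08 SE, edgeR adjusted p = 2.09e-09), with controls at 17, 17.8 and 16.6 CPM. MTHFD2, a mitochondrial folate enzyme, measured 53.6, 53.7 and 53.4 CPM in the mtAsn-1 libraries and 93.3, 88.2 and 81 CPM in the mtAsn-2 libraries (log2 fold change 0.71 ± 0.05 SE, edgeR adjusted p = 6.44e-12). WARS1, the cytosolic tryptophanyl-tRNA synthetase, rose from 146 ± 4.21 to 229.9 ± 5.79 CPM. It is also an interferon-induced gene. SLC7A11, the cystine transporter, went the other way, at 127, 134 and 127 CPM in the mtAsn-1 libraries and 62, 61.7 and 59.2 CPM in the mtAsn-2 libraries (log2 fold change -1.08 ± 0.05 SE, edgeR adjusted p = 7.63e-17). Serine, folate and one-carbon enzymes as a list had 8 of 25 higher (32.0%) and 5 lower (20.0%), against 21.9% and 24.6% of all genes. The shares of protein-coding genes were 24.28% and 28.38%. MTR, methionine synthase, fell from 57.8 ± 0.921 to 40.9 ± 2.61 CPM.

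Glycolytic genes were lower with mtAsn-2 almost throughout. Of 23 glycolysis and lactate export genes tested, 20 fell and 1 rose, with a median of -0.365. PGK1 (chrX:78104248-78129295), phosphoglycerate kinase, measured 2103, 2254 and 2173 CPM in the mtAsn-1 libraries and 1507, 1532 and 1463 CPM in the mtAsn-2 libraries (log2 fold change -0.54 ± 0.04 SE, edgeR adjusted p = 1.09e-10). PKM, the last enzyme of the pathway, measured 4317, 4101 and 4416 CPM in the mtAsn-1 libraries and 3189, 3049 and 3240 CPM in the mtAsn-2 libraries (log2 fold change -0.44 ± 0.04 SE, edgeR adjusted p = 1.26e-10). PFKFB4, which makes the activator of phosphofructokinase, measured 155, 147 and 154 CPM in the mtAsn-1 libraries and 92.4, 92.9 and 97.8 CPM in the mtAsn-2 libraries (log2 fold change -0.69 ± 0.06 SE, edgeR adjusted p = 2.19e-10). In none of the 3 did the groups overlap. Controls lay below mtAsn-1 for PGK1 (1791, 1839 and 1966 CPM) and above it for PKM (4814, 4942 and 5047 CPM), while mtAsn-2 was lowest in both. PFKM, a phosphofructokinase, was the gene that rose, from 141 ± 4.17 to 164 ± 3.32 CPM. LDHA was not tested: it had at most 5 reads in a library, and it has a copy on an alternate locus.

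Hypoxia response genes outside glycolysis, many of them targets of HIF transcription factors, had 20 of 29 lower and 4 higher, with a median of -0.328. LOX (chr5:122063195-122078259), lysyl oxidase, which crosslinks collagen, measured 39.7, 40.7 and 39.2 CPM in the mtAsn-1 libraries and 20.4, 19.4 and 22.1 CPM in the mtAsn-2 libraries (log2 fold change -0.95 ± 0.07 SE, edgeR adjusted p = 2.78e-11). BNIP3, a mitophagy receptor, measured 196, 206 and 183 CPM in the mtAsn-1 libraries and 133, 134 and 129 CPM in the mtAsn-2 libraries (log2 fold change -0.56 ± 0.05 SE, edgeR adjusted p = 1.06e-08). LOXL2, a relative of LOX, averaged 604 ± 35.1 CPM with mtAsn-1 and 423 ± 12.7 with mtAsn-2. Each gene's mtAsn-2 libraries all lay below its mtAsn-1 libraries. The core letters of the hypoxia response element, ACGTG on either strand, occurred in 7 of 22 glycolysis promoters (31.82%) and 10 of 22 hypoxia promoters (45.45%). They were in 15.78% of all promoters and 19.6% of those of tested genes. Of the 19 hypoxia members with a promoter that were called, 7 held them. The LOX promoter (chr5:122078260-122078459, minus strand) is printed with its 4 matches in capitals.
LOX: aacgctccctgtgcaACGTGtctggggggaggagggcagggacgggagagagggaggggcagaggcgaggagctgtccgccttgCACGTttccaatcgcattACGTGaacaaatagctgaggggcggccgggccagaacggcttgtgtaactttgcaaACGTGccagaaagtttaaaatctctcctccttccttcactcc
The capitals include ACGTG and its complement CACGT.

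NRF2 drives antioxidant, glutathione and pentose phosphate genes. Of 40 tested, 25 were lower with mtAsn-2 and 3 higher, with a median of -0.214. Under the stricter filter, and also without a filter, 5 were higher. TXN (chr9:110243810-110256507), thioredoxin, measured 332, 349 and 332 CPM in the mtAsn-1 libraries and 204, 198 and 192 CPM in the mtAsn-2 libraries (log2 fold change -0.77 ± 0.04 SE, edgeR adjusted p = 5.03e-15). NQO1, a quinone reductase, measured 253, 235 and 265 CPM in the mtAsn-1 libraries and 162, 147 and 161 CPM in the mtAsn-2 libraries (log2 fold change -0.68 ± 0.05 SE, edgeR adjusted p = 1.69e-12). TALDO1, transaldolase of the pentose phosphate pathway, averaged 237 ± 7.42 and 168 ± 3.24 CPM. The mtAsn-2 libraries were lowest in all 3 genes. Control lay highest for NQO1, at 429, 437 and 454 CPM, and between the groups for TXN, at 285, 307 and 310.2 CPM. KEAP1, the inhibitor of NRF2, was among the 3 that rose, from 112 ± 10.1 to 144 ± 7.77 CPM.

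Lipid genes were mixed. Of 30 cholesterol genes, 17 were lower and 8 higher with mtAsn-2, and 11 were lower without replicate 2 of mtAsn-2. SREBF2 (chr22:41833105-41907308), the transcription factor of sterol synthesis, measured 259, 266 and 246 CPM in the mtAsn-1 libraries and 147, 149 and 167 CPM in the mtAsn-2 libraries (log2 fold change -0.73 ± 0.05 SE, edgeR adjusted p = 1.25e-12). SQLE, squalene epoxidase, was higher, at 22.8, 19.4 and 22 CPM in the mtAsn-1 libraries and 27.3, 26.1 and 27.4 CPM in the mtAsn-2 libraries (log2 fold change 0.33 ± 0.07 SE, edgeR adjusted p = 0.000152). The groups did not overlap in either gene. Of 19 genes of fatty acid synthesis, 11 were lower and 2 higher. ACSL4, which activates polyunsaturated fatty acids, averaged 172 ± 1.76 CPM with mtAsn-1 and 105 ± 6.9 with mtAsn-2, where control averaged 165 ± 3.9.

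Matrix genes were mostly lower with mtAsn-2. Of 32 extracellular matrix and collagen genes, 21 fell and 3 rose, with a median of -0.280, and 1 rose without replicate 2 of mtAsn-1. COL5A1 (chr9:134641789-134844843), a fibrillar collagen chain, measured 530.2, 555 and 546 CPM in the mtAsn-1 libraries and 261, 275 and 287 CPM in the mtAsn-2 libraries (log2 fold change -0.99 ± 0.04 SE, edgeR adjusted p = 7.17e-17). TNC, the matrix glycoprotein tenascin C, measured 229, 236 and 208 CPM in the mtAsn-1 libraries and 104, 113 and 114 CPM in the mtAsn-2 libraries (log2 fold change -1.02 ± 0.05 SE, edgeR adjusted p = 1.52e-14). TNC in control was lowest of the groups, at 70.3, 68 and 73.3 CPM, whereas COL5A1 in control, at 485, 443 and 481 CPM, lay between. COL1A1 was among the 3 that rose, from 34.4 ± 1.61 to 53.5 ± 4.65 CPM. Of 24 matrix proteases and inhibitors, 14 fell and 3 rose. MMP14, a membrane-bound collagenase, measured 949, 1069 and 949 CPM in the mtAsn-1 libraries and 552, 554 and 558 CPM in the mtAsn-2 libraries (log2 fold change -0.83 ± 0.04 SE, edgeR adjusted p = 3.9e-15). TIMP2, its inhibitor and cofactor, measured 637, 698 and 647 CPM in the mtAsn-1 libraries and 291, 292 and 302 CPM in the mtAsn-2 libraries (log2 fold change -1.16 ± 0.04 SE, edgeR adjusted p = 5.71e-19). The groups of both genes were separate. Integrin subunits had 8 of 15 lower, among them ITGA6 (-0.55) and ITGA3 (-0.46), laminin receptors, and 3 higher.

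**Figure D4:**
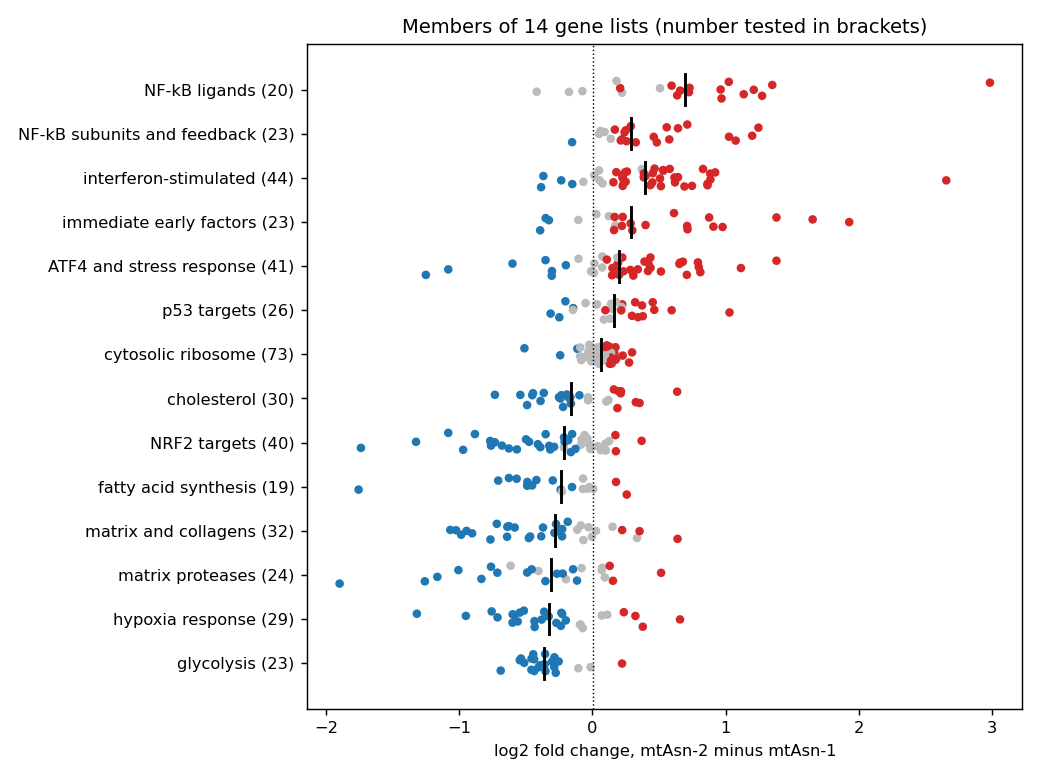
Log2 fold change of mtAsn-2 over mtAsn-1 (horizontal) for each tested member of 14 gene lists, 1 point per gene, red for higher and blue for lower at an adjusted p under 0.05, grey otherwise, with a black bar at the list median and a dotted line at the median of all genes (0.001). Medians run from 0.692 for NF-kB ligands to -0.365 for glycolysis.

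Nuclear genes of mitochondria had medians nearer 0. Of 71 respiratory chain subunits, 21 were lower (29.58%), near the 28.38% of protein-coding genes (24.6% of all genes). Another 3 were higher (4.23%, against 24.28% of protein-coding and 21.9% of all genes), with a list median of -0.058. Without replicate 1 of mtAsn-1, after thinning and under the stricter filter 5 were higher, and 6 without a filter. NDUFB1, a subunit of complex I, measured 34.1, 33.5 and 32.5 CPM in the mtAsn-1 libraries and 22.4, 22.1 and 23.3 CPM in the mtAsn-2 libraries (log2 fold change -0.56 ± 0.06 SE, edgeR adjusted p = 6.68e-09). Mitochondrial ribosomal proteins had 17 of 74 higher and 5 lower, a share of higher calls (22.97%) near that of all genes (21.9%). Of 20 mitochondrial aminoacyl-tRNA synthetases, 6 were higher and 3 lower, and MARS2, which charges methionine tRNA, averaged 10.1 ± 0.0961 CPM with mtAsn-1 and 13.9 ± 0.732 with mtAsn-2. Enzymes that process or modify mitochondrial tRNA had 11 of 26 higher (42.31%) and 4 lower (15.38%). YRDC, which helps make the threonylcarbamoyl mark on tRNA, rose from 31.3 ± 0.0312 to 42.2 ± 2.55 CPM, and NSUN2, a tRNA methyltransferase, fell from 122 ± 8.48 to 87.4 ± 4.87 CPM. Cytosolic ribosomal proteins had 24 of 73 higher (32.88%) and 3 lower (4.11%), with 15 higher without replicate 3 of mtAsn-1.

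Markers of other cell types were checked beside these lists. Of 16 leukocyte markers, 8 were under 0.1 CPM in each group, with CD3D, MS4A1, CD2 and TYROBP at 0 in both, and the summed level of the list was 291.9 to 320.4 CPM with mtAsn-1 and 225.0 to 232.1 with mtAsn-2. Most of that sum was LAPTM5, at 191, 195 and 199 CPM in the mtAsn-1 libraries and 126, 128 and 130.3 CPM in the mtAsn-2 libraries. The fibroblast and stromal sum went the other way, from 44.6 to 49.1 CPM in the mtAsn-1 libraries against 59.5 to 69.4 CPM in the mtAsn-2 libraries. Most of that sum was COL1A1, at means of 34.35 and 53.45 CPM. Of the 4 members tested, 1, COL1A1, was called higher and 1, RGS5, lower, with a median log2 fold change of -0.079. The endothelial sum overlapped between the groups, at 149.9 to 177.4 CPM and 137.2 to 150.5 CPM. The luminal epithelial sum was 1444 to 1513 CPM with mtAsn-1 and 1173 to 1254 CPM with mtAsn-2. Most of that sum was KRT8, KRT18 and KRT19, the 3 members called lower. More members of this list were called higher, 4 of 10 tested, and its median log2 fold change was 0.212. Of 12 markers of the mesenchymal-like line, 8 were lower and 4 higher with mtAsn-2. The sum of these line markers was 8960 to 9518 CPM with mtAsn-1 and 7656 to 7771 with mtAsn-2. AXL, the receptor of GAS6, averaged 1073 ± 16.9 and 809 ± 12.1 CPM, and VIM, vimentin, averaged 3692 ± 182 and 3017 ± 75.5. In bulk RNA, fewer cells of a type and less RNA per cell cannot be told apart. The part of these levels in the results was not tested.

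Gene length went with the direction of the difference, a pattern chosen after the data had been seen. Among protein-coding genes that span over 400 kb, 205 of 280 were lower with mtAsn-2 (73.21%) and 6 were higher, with a median of -0.602. Under 10 kb, 495 of 2498 were lower and 667 higher, with a median of 0.043. The medians between were 0.058 at 10 to 30 kb, 0.001 at 30 to 100 kb, -0.13 at 100 to 200 kb and -0.339 at 200 to 400 kb. Relative to control, the longest genes had a median of 0.52 with mtAsn-1 and -0.105 with mtAsn-2. These comparisons share the control libraries. The share of reads in genes over 400 kb was 0.834% to 0.864% in the mtAsn-1 libraries and 0.575% to 0.600% in the mtAsn-2 libraries, without overlap. It was 0.604% to 0.641% in the control libraries and 0.835% to 0.861% with mtLys, a range like that of mtAsn-1. Against mtLys, the longest genes had a median of -0.001 with mtAsn-1 and -0.597 with mtAsn-2, values that share the mtLys libraries. At a mean log2 CPM of at least 5, 55 of 62 of the longest genes were lower. SDK1, CDH4, RBMS3 and DIP2C, named above, span over 400 kb, whereas GAS6 spans 43528 bases, PGK1 25048 and TXN 12698. The part of span in the results of the gene lists was not tested.

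**Figure D5:**
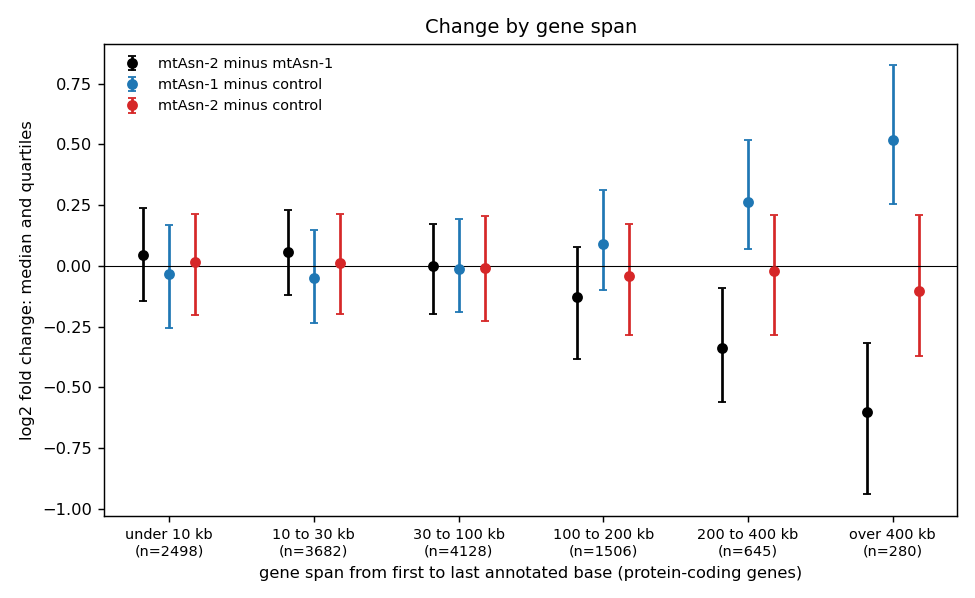
Median log2 fold change (points) with quartiles (bars) in 6 classes of gene span for protein-coding genes, for mtAsn-2 over mtAsn-1 (black), mtAsn-1 over control (blue) and mtAsn-2 over control (red). The black median falls from 0.043 under 10 kb to -0.602 over 400 kb, while the blue one reaches 0.52 and the red one -0.105.

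Amino acid transporters and signalling receptors showed calls in both directions. Of 21 amino acid transporters, 8 were higher and 8 lower (38.1% each, against 21.9% and 24.6% of all genes). Among protein-coding genes, 24.28% were higher and 28.38% lower. SLC1A5, a glutamine transporter, averaged 348 ± 5.23 CPM with mtAsn-1 and 470.2 ± 7.64 with mtAsn-2 (log2 fold change 0.44). SLC6A6, the taurine transporter, averaged 108 ± 4.57 and 67.9 ± 4.88 CPM (log2 fold change -0.68). Of 34 TGF-beta and activin genes, 13 were higher (38.24%) and 10 lower (29.41%). The receptor subunits moved apart: TGFBR1 measured 76.5, 72.1 and 81.1 CPM in the mtAsn-1 libraries and 120.3, 119 and 112 CPM in the mtAsn-2 libraries (log2 fold change 0.61 ± 0.05 SE, edgeR adjusted p = 5.42e-11), and TGFBR2 measured 489.6, 533 and 508 CPM in the mtAsn-1 libraries and 356, 357 and 372 CPM in the mtAsn-2 libraries (log2 fold change -0.50 ± 0.04 SE, edgeR adjusted p = 1.36e-11). Neither gene's groups overlapped. Of 26 YAP and TEAD genes, 8 were higher and 13 lower. TEAD1, the DNA-binding partner of YAP, averaged 276 ± 3.63 CPM with mtAsn-1 and 173 ± 1.16 with mtAsn-2. CCN1, a target of the pair, averaged 612 ± 38.7 and 894 ± 30.4.

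For some genes the control libraries lay between the libraries of the oligonucleotides, so that the pair sat on opposite sides of it. ANKRD33B measured 33.7, 28.8 and 30.8 CPM in the mtAsn-1 libraries and 69.5, 68.8 and 69.2 CPM in the mtAsn-2 libraries, with controls at 43.5, 42.7 and 40.8 CPM. ELF3, an epithelial ETS factor, measured 6.6, 6.17 and 6.61 CPM in the mtAsn-1 libraries and 14.4, 13.2 and 16.1 CPM in the mtAsn-2 libraries, with controls at 9.93, 8.35 and 10.4 CPM. KCNQ5, a potassium channel, went the other way, at 28.6, 26.4 and 27.1 CPM in the mtAsn-1 libraries and 9.32, 9.3 and 9.22 CPM in the mtAsn-2 libraries, with controls at 14.7, 14.2 and 13.1 CPM. The 3 groups are separate in each because the rule that named these genes required it. The same order held for ZNF850, SSTR2, TLCD5 and APOL1 among the higher genes named by the same rule, and for PTPRF, RBMS3, TLN2, TBC1D5 and CPA4 among the lower ones.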

How the data were processed

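Libraries were made from total RNA with a TruSeq v2 kit, per the labels. The authors deposited read counts per gene, unnormalised, for 12 libraries. The submitters' processing notes list FastQC, STAR 2.6.0a, featureCounts, DESeq2 and hg38; how strand and multi-mapping reads were handled is not given in the sources used here. Of 52897 lines, 52859 genes were used; 12 genes with broken lines and 26 fragments were left out, and 43473 matched the RefSeq gene table by symbol. Of 1242 coding genes with a copy on an alternate locus, 247 could be tested (19.89%), against 69.03% of other coding genes.

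Counts were analysed with edgeR 4.0.16 in R 4.3.3: TMM factors, filterByExpr by group (minimum count 10, total 15) and robust quasi-likelihood tests in 1 fit of 12 libraries, with Benjamini-Hochberg adjustment over 16051 genes. Standard errors were back-calculated from the F statistic. Log2 CPM used a prior count of 2. No replicate pair was a copied library (chi-square per gene at least 2.43). The test was checked on simulated data. Named genes were the targets, the 12 largest rises and falls of coding genes at a mean log2 CPM of at least 2 without overlap, up to 4 members per list and direction by adjusted p, 4 non-coding rises and falls by the same rule, and 6 per direction with control between; additions to this rule are marked in the text. The comparison, its 43 gene lists and its rules were chosen with earlier results of these data known. Figures were drawn with matplotlib 3.10.9. Alternatives were RLE factors, DESeq2 1.42.0, other filters, a fit with a replicate block, a fit of the 6 libraries only, TMM without mitochondrial genes, thinning, and leaving out each library. Some genes that the rule names are not reported here.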

Additional observations from a re-analysis of the deposited data

How the results depend on the processing

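Across 14 alternatives, 82.06% to 99.97% of the 7465 calls remained and 0 changed sign. The count of higher genes was 3633 with RLE factors, 3239 with DESeq2 and 3823 without a filter, and of lower genes 3834, 3566 and 3521. With the replicate block, 3340 genes were higher and 3813 lower, although the labels state no pairing and same-numbered libraries did not deviate together (correlations 0.024, 0.042 and -0.072, and not every library correlated best with its own number). Leaving out each library in turn gave 3035 to 3365 higher, 3445 to 3798 lower and 668 to 739 at least 2-fold different. The stricter filter asks for 1 CPM in every library of 1 group. It also asks for an average log2 CPM (edgeR, all 12 libraries) of 2 or more. Of the 10884 genes it left, 186 were at least 2-fold different, against 687 of 16051. Most of the 2-fold differences thus did not remain once genes with low counts were left out. Of 4797 values for the 345 genes listed under the naming rule or added later, 4708 kept direction and side of the threshold and 87 lost the call. TRNK (MT-TK), not called at 0.08, turned to -0.06 without mtAsn-1 replicate 1 (-0.0623) and without mtAsn-2 replicate 2 (-0.0582); leaving out each library gave -0.0623 to 0.2885, and the cause was not tested. Of 86 list counts, 21 moved by over 1.5 times under some setting. Lower genes over 400 kb numbered 161 to 206. Few reads limit MT-TN, with 9 and 5 in all, and whether reads follow the amount of the tRNA was not tested.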

Other observations

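Zinc finger genes of chromosome 19, a class added after the data had been seen, were mostly higher with mtAsn-2: 106 of 208 rose and 9 fell, with a median of 0.261. Zinc finger genes on other chromosomes had 70 of 199 higher and 31 lower, with a median of 0.114, and other coding genes of chromosome 19 had 197 of 738 higher and 171 lower, with a median of 0.031. Of 36 DNA replication genes, 12 were lower (33.33%) and 2 higher (5.56%) with mtAsn-2, against 28.38% and 24.28% of protein-coding genes. Without mtAsn-2 replicate 3 and under the stricter filter 5 were higher, and 4 without a filter. POLA1, the catalytic subunit of the primase-bound polymerase, averaged 45.7 ± 3.77 CPM with mtAsn-1 and 24.9 ± 0.763 with mtAsn-2 (SD, n = 3). Mitosis genes had 7 of 36 lower (19.44%) and 4 higher (11.11%), against 24.6% and 21.9% of all genes.

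Proteasome subunits had 11 of 32 higher (34.38%) and 2 lower (6.25%). Lysosome and autophagy genes had 13 of 31 lower (41.94%) and 7 higher (22.58%, near the 21.9% of all genes). Of protein-coding genes, 28.38% were lower and 24.28% higher. Targets of p53 had 12 of 26 higher and 4 lower, or 2 lower without mtAsn-1 replicate 3 or without mtAsn-2 replicate 2. PMAIP1, which encodes the BH3-only protein NOXA, averaged 33.0 ± 1.35 CPM with mtAsn-1 and 49.7 ± 4.02 with mtAsn-2. Among BCL2 family and cell death genes, 9 of 27 were higher and 9 lower (33.33% each, against 21.9% and 24.6% of all genes). The shares of protein-coding genes, 24.28% and 28.38%, were nearer. BOK, a pore-forming member, averaged 46.7 ± 2.82 CPM in mtAsn-1 libraries and 24.4 ± 0.81 in those of mtAsn-2. BOK overlaps an opposite-strand exon.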
